A study of Mus musculus with 4 samples.

Results

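The spinal cord of a mouse labelled IP6K2-KO was compared with that of a wild-type (WT) littermate on whole-transcriptome microarrays, 1 array for each genotype. These are 2 of the 4 arrays of the series, and the other 2 hold duodenum from the same genotypes. Both groups were male mice of 20 weeks that were moved from the CE-2 normal diet to the iVid-neo purified diet for 1 week, with food withdrawn for 48 h at the end. The knockout line lacks exon 6 of Ip6k2, which encodes the kinase domain, and the study's methods describe perfusion of the mice with buffered saline before organs were taken. All 32585 genes or transcript identifiers of the array were considered, and 25217 of them were well above background on at least 1 of the spinal cord arrays. With 1 array per genotype, no difference between genotypes could be set against the spread between mice, so no test was made.

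IP6K2 is an inositol hexakisphosphate kinase, an enzyme that adds a phosphate to inositol hexakisphosphate (IP6) to make the inositol pyrophosphate IP7. The spinal cord holds motor neurons, interneurons and glia, and its central myelin is made by oligodendrocytes. Myelin of the nerve roots is made by Schwann cells, and the cord lies inside meninges and vertebrae next to muscle, marrow and fat.

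The transcripts that differed most between the arrays were those of skeletal muscle and of peripheral myelin, which were higher on the array labelled KO, and a brown fat transcript, Ucp1, which was lower. The listed marker genes of the cord's own neurons and glia stayed within 2-fold, as did 97.6% of all genes above background on both arrays. The probe for Ip6k2 was itself brighter on the array labelled KO, so genotypes are given as labelled throughout.

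The values are intensities of 1-colour arrays, and each array was scaled to its own 75th percentile, 905 for WT and 971 for the array labelled KO. The scanner software called 76.8% of the 39429 probes well above background on the WT array and 77.4% on the other, and no probe was saturated. Differences are on the log2 scale, labelled KO minus WT, so that 1 stands for 2-fold. A technical SD was estimated from 399 probes that are spotted 10 times on each array, and it covers spots but not mice. A gene above background on only 1 array is given as a bound, computed against the lowest level well above background on the dimmer array.

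The signal of the Ip6k2 probe was 452 in WT and 1320 on the array labelled KO. The difference was 1.45 with a technical SD of 0.0646. It was above background on both arrays, and the files do not give its position relative to the deleted exon. Among the other 9 genes of inositol pyrophosphate turnover, none passed 2-fold. Ip6k3, the kinase paralog known from muscle, gave 55.4 and 78.4, a difference of 0.40 that turned to -1.36 with normexp, another background correction under which the median gene was at -0.45, and Ip6k1 differed by -0.04. The kinases that act on IP7, Ppip5k1 and Ppip5k2, differed by -0.02 and 0.06, and the phosphatase genes Nudt3, Nudt4, Nudt10, Nudt11 and Minpp1 lay between -0.22 and 0.05. None of the 12 genes of inositol and inositol phosphate synthesis passed 2-fold, and their median was -0.06. Of all genes above background, 2.28% were higher by 2-fold and 0.864% lower, so few members would pass at those shares.

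Of the 25217 genes above background, 576 (2.28%) were higher by at least 2-fold on the array labelled KO and 218 (0.864%) were lower. Of these, 464 and 128 were above background on both arrays and the rest are bounds. Among the 24166 genes above background on both, the median difference was -0.04, the middle 95% lay between -0.58 and 0.87, and 97.6% were within 2-fold. At least 4-fold separated the arrays for 111 genes in the higher direction and for 8 in the lower direction. Of the 464 higher genes above background on both arrays, 464 were also above 0 in the deposited log2 table and 405 passed 2-fold there, and of the 128 lower genes 128 were below 0 and 89 passed. Where a called gene had at least 2 probes above background, 63 of 65 higher genes and 11 of 11 lower genes moved the same way on every probe, and 41 and 7 of them passed 2-fold on every probe. Signals of the arrays were correlated across genes with r = 0.993, where the genes share the arrays and are not independent. Called shares depended on brightness. With the genes above background on both arrays split into 3 equal groups by brightness, 3.43% were higher and 1.24% lower in the dim group, and 0.472% were higher and 0.0869% lower in the bright group.

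**Figure D1:**
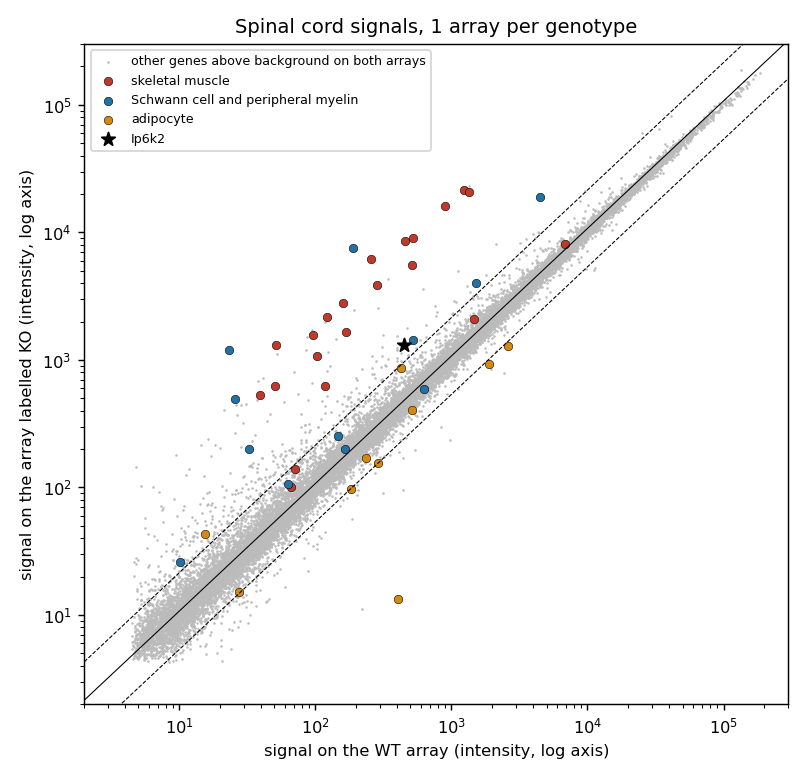
Signal of each gene above background on both spinal cord arrays, WT against the array labelled KO, on log axes. The solid line marks equal normalized signal and the dashed lines 2-fold. Skeletal muscle genes (red) and Schwann cell genes (blue) lie mostly above the upper dashed line, and the adipocyte gene at the far lower right of the dashed lines is Ucp1, with signals of 404 and 13.4.

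Skeletal muscle genes formed the group with the largest difference. Of 22 members of the list, 18 were higher by 2-fold on the array labelled KO and none was lower. Over all genes above background, 2.28% were higher and 0.864% lower. The median over the members above background on both arrays was 3.67, against -0.04 over all genes. Members of this and the other lists were chosen with earlier results of these data known. Counts over the lists therefore describe these arrays and are not independent support. Ckm, the muscle creatine kinase, rose from a signal of 51.5 to 1320, a difference of 4.58. Acta1, skeletal actin, gave 256 and 6142, a difference of 4.48. Myh4, a fast myosin heavy chain, gave 1246 and 21634, a difference of 4.02. The fast troponins Tnnt3, Tnnc2 and Tnni2 differed by 4.12, 4.07 and 3.84, so these troponins, Myh4 and Acta1 differed to a similar extent. The giant sarcomere proteins Ttn and Neb differed by 3.95 and 3.53, and the calcium release channel Ryr1 by 3.66. Of the list, 4 members stayed within 2-fold. Myh7, the slow myosin heavy chain, gave 1463 and 2093, a difference of 0.42, and Tnnc1, the slow troponin C, and Casq1, the calcium store protein of fast fibres, differed by 0.52 and 0.88. Pygm, the muscle glycogen phosphorylase, was bright on both arrays, at 6798 and 8085, and differed by 0.15.

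The WT array was not without muscle RNA. Myh4 at 1246 and Tnni2 at 1354 lay above the 75th percentile of that array. In a piece of tissue, fewer cells of a type and less RNA per cell cannot be told apart. Other muscle genes were among the largest differences or bounds. Ckmt2, the mitochondrial creatine kinase of muscle, differed by 4.31, Csrp3 by 4.15, Hspb7 by 4.15 and Trim54 by 4.21. With normexp background correction Csrp3 was 0.36, and the sign turned for Hspb7 and Trim54, to -0.49 and -0.95. The myogenic factor Myf6, at 3.10 and 78.5, was at least 16.4-fold higher, and Xirp2 and Ankrd1 were at least 16.2-fold and 14.7-fold higher. With normexp after flagged local backgrounds were replaced by the array's median local background, these 3 differences were 1.05, 0.98 and 1.08 on the log2 scale. Desmin (Des), placed in the list of pericytes and vascular smooth muscle but also made by skeletal muscle, differed by 3.44 (-0.31 with normexp), while the other 9 members of that list stayed within 2-fold.

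**Figure D2:**
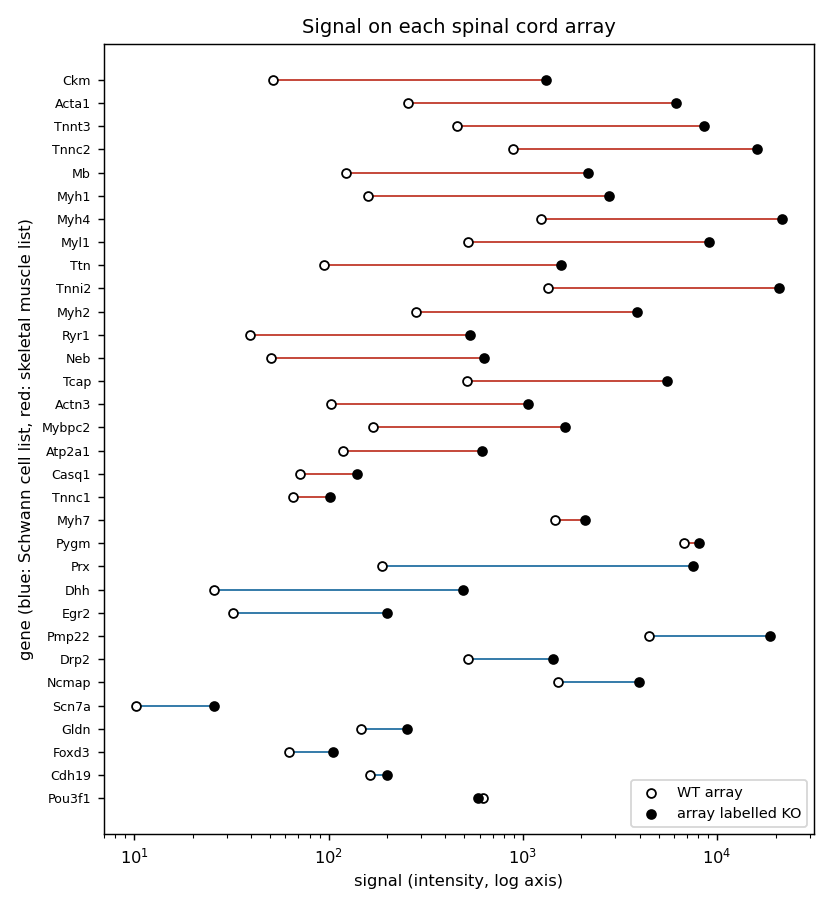
Signal of skeletal muscle genes (red lines) and Schwann cell genes (blue lines) above background on both spinal cord arrays, on a log axis. Open circles are the WT array and filled circles the array labelled KO. Long lines mark genes such as Ckm and Prx, and short lines Pygm and Pou3f1.

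Genes of Schwann cells and peripheral myelin were also higher. Of 13 members, 8 were higher by 2-fold and none was lower, against 2.28% higher and 0.864% lower over all genes above background. The median was 1.32, and 0.28 with normexp. Prx, periaxin, a protein of the myelin sheath of peripheral nerve, gave 188 in WT and 7564 on the array labelled KO, a difference of 5.23. Dhh, a Schwann cell ligand of the hedgehog family, gave 25.6 and 493, a difference of 4.17 (0.88 with normexp). The myelination factor Egr2 differed by 2.53, and Pmp22, a myelin protein that many cell types also express, was bright on both arrays at 4447 and 18813 and differed by 1.98. Cldn19, a claudin of peripheral myelin, was faint on the WT array at 4.77 and reached 146, a difference of 4.83, but -0.64 with normexp. Cdh19 and Pou3f1, which mark precursor and promyelinating stages, differed by 0.18 and -0.19. None of the 8 sensory ganglion genes above background on either array passed 2-fold, and 2 others, Scn10a and Mrgprd, were below the background limit on both arrays.

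The listed genes of the resident cells of the cord differed little, as did most genes of the arrays. In the 10 lists of neurons, glia, ependyma and endothelium, 119 members were above background and none passed 2-fold in either direction. Over all genes above background, 2.28% were higher and 0.864% lower, so few members would pass at those shares. The member differences ran from -0.90 to 0.95. The list medians ran from -0.13 to 0.18. Chat, the enzyme that makes acetylcholine in motor neurons, gave 947 and 1022, a difference of 0.01, and Slc18a3, the vesicular acetylcholine transporter, differed by -0.02. Mbp, a structural protein of central myelin, gave 2050 and 2466, a difference of 0.17, and the myelin lipid enzyme Ugt8a differed by 0.81. The 12 oligodendrocyte genes had a median of 0.17, the 13 microglial genes 0.14 and the 12 astrocyte genes -0.12. These markers ranged from dim to bright, and 118 of the 119 were well above background on both arrays.

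**Figure D3:**
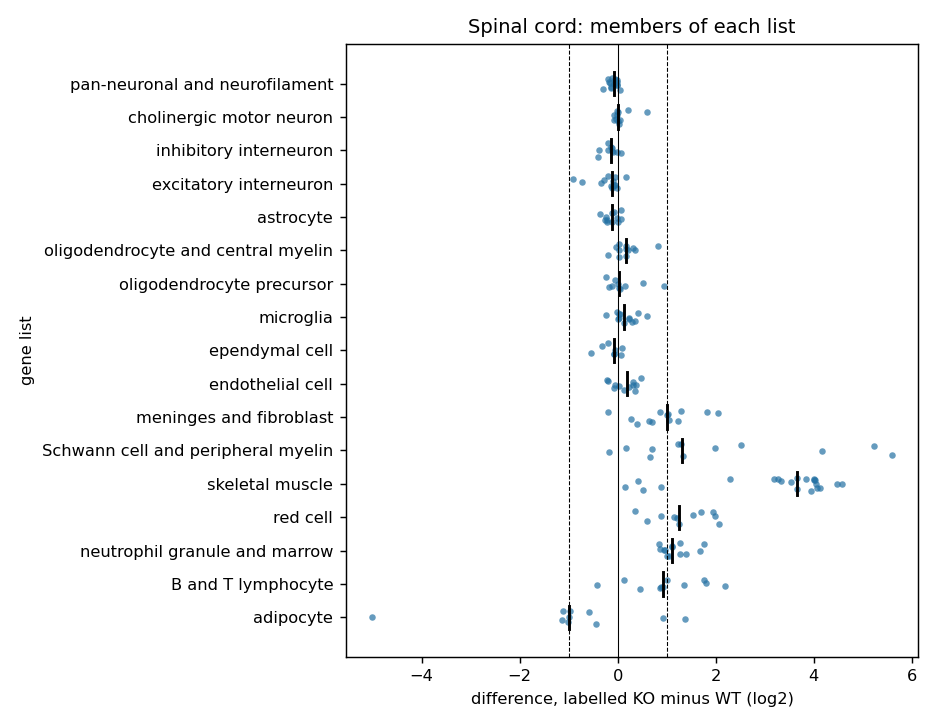
Difference between the spinal cord arrays (log2, labelled KO minus WT) for each member above background on both, by gene list. Each point is a gene, short vertical bars are list medians and dashed lines mark 2-fold. Lists of neurons and glia lie between the dashed lines. Medians of the muscle, Schwann cell, red cell and marrow lists lie to the right of them, with some members of each between the lines.

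Genes of meninges and fibroblasts, red cells and marrow were also higher. For comparison, 2.28% of all genes above background were higher by 2-fold and 0.864% were lower. In meninges and fibroblasts, 7 of 13 members were higher by 2-fold, with a median of 1.01 that became -0.13 with normexp. Dcn, decorin, gave 2109 and 8049, a difference of 1.83, and Col3a1, a fibrillar collagen, differed by 2.05 (-0.69 with normexp). Ptgds, the brightest member, differed by -0.20. Of 11 red cell genes, 8 were higher, with a median of 1.25. Klf1, an erythroid transcription factor, gave 10.8 and 45.8, a difference of 1.99, and the erythroid factor Gata1 differed by 1.95. The haemoglobin gene Hba-a2 was near the top of the range on both arrays, at 135078 and 186448, and differed by 0.36. Haemoglobin genes share near-identical copies, so their probes may not separate them.

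Of 13 neutrophil granule and marrow genes, 8 were higher, with a median of 1.11. The shares over all genes above background were again 2.28% higher and 0.864% lower. Mpo, myeloperoxidase, gave 762 and 2635, a difference of 1.69, and Ctsg, cathepsin G, differed by 1.76. S100a9, the brightest member, differed by 0.85, the smallest value of the list. Of 12 lymphocyte genes above background, 5 were higher, all of them B cell genes, and the median of 0.92 became -1.39 with normexp. Ms4a1, the CD20 antigen, gave 20.7 and 102, a difference of 2.20 (-1.13 with normexp), and Cd79b differed by 1.79, while the T cell genes Cd2, Cd3d, Lck and Cd3e differed by 0.92, 0.87, 0.12 and -0.42. The 4 class II genes of antigen presentation H2-Ab1, Cd74, H2-Aa and H2-Eb1 differed by 1.93, 1.83, 1.76 and 1.498, and the class I genes H2-K1 and H2-D1 by 0.17 and 0.07. Of 18 cell cycle genes, 5 were higher, with Mki67, a marker of dividing cells, at 261 and 776, a difference of 1.47. The median of that list was 0.61, and -0.44 with normexp. Histone genes made in S phase were higher by 2-fold in 6 of 37, with a median of 0.33, and collagens in 3 of 38, with 1 lower and a median of 0.16. In cartilage and bone 1 of 9 genes was higher, Ibsp, a bone matrix protein, by 1.05 (-0.74 with normexp). Counts as small as those of collagens and of cartilage and bone are not read as patterns. The part of muscle, nerve root, meninges, marrow or blood carried with the cord in these values was not tested.

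Genes of fat were lower. Of 11 adipocyte genes above background, 5 were lower by 2-fold and 1 was higher, with a median of -0.98. The shares over all genes above background were 0.864% lower and 2.28% higher. Ucp1, the uncoupling protein of brown fat, gave 404 in WT and 13.4 on the array labelled KO, a difference of -5.02. Elovl3, a fatty acid elongase of brown fat, was above background on the WT array only, at 17.0, and was at least 4.25-fold lower (-0.49 on the log2 scale with normexp and replaced local backgrounds). Cidea, a lipid droplet protein, gave 2592 and 1285, a difference of -1.11, and the fatty acid carrier Fabp4 and the hormone gene Adipoq differed by -1.13 and -1.01. Retn, another fat hormone, went the other way by 1.37 (-1.80 with normexp), and Cfd, adipsin, gave 428 and 871, a difference of 0.92. Both arrays left Lep below the background limit.

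Other large decreases were in enzymes and in genes with no list. Cyp2b10, a cytochrome P450, gave 219 and 11.05, a difference of -4.41. Gys2, the liver glycogen synthase, differed by -2.10, Cyp3a25 and Cyp3a57 by -1.89 and -1.86, Acsm3 by -1.94 and Pck1, the gluconeogenic kinase, by -1.80. Since these enzymes are known from liver and kidney, other genes of those organs were read as well. A first list was drawn partly from genes that had fallen. In it, Serpina1a, Serpina1c, Serpina1d and Serpina1e differed by -1.46, -1.49, -1.63 and -1.57, and Hao1 and Uox by -1.35 and -1.38. Whether the probes of these related Serpina1 genes, or those of Cyp3a25 and Cyp3a57, separate them was not tested. Of the 18 members of this first list above background on both arrays, 3 had a difference above 0. That count was set by the choice of members and is not read as a result. Defining markers, also chosen after the values were seen, were read next. Alb, Apoa1, Fga, Fgb, Ahsg, Umod, Kap and Slc12a1 were below the background limit on both arrays. Apoh, Tat and Slc34a1 were above it on both and differed by -0.21, -0.22 and 0.26, and Cps1 was above it on the WT array only, at 6.46. Cyp2e1, another cytochrome P450, went the other way by 1.49 (-0.56 with normexp). Syt10, a synaptotagmin, gave 438 and 94.8, a difference of -2.31.

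Rab25, Nt5el and Nek11 differed by -1.88, -2.01 and -1.85, and Oas1g, Tmem45b, Gstp3 and Ms4a13, above background on the WT array only, were at least 5.24-fold, 4.34-fold, 4.01-fold and 3.96-fold lower. With normexp and replaced local backgrounds none of these 4 passed 2-fold (-0.44, -0.53, -0.34 and -0.28 on the log2 scale), and with the mean of a gene's probes Oas1g was -0.15 and Ms4a13 -0.03. The calls of Rab25, Nt5el, Nek11, Acsm3, Cyp3a25 and Cyp3a57 were also lost with normexp and replaced local backgrounds. In the other direction, Fgf4 and Dhrs7c, above background on the array labelled KO only, were at least 15.5-fold and 13.1-fold higher (0.94 and 0.96 on the log2 scale with normexp and replaced local backgrounds), and Fam178b differed by 4.09, but by 0.19 on its second probe.

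Nek11 and Hyal3 lie on chromosome 9, which also holds Ip6k2. On chromosome 9, 15 of 941 genes were lower (1.59%), and on the other chromosomes 102 of 15856 (0.643%). Among the 100 tested genes to each side of Ip6k2 in RefSeq order, 8 of 200 were lower (4%), Nek11, Col6a4 and Hyal3 among them, and 7 were higher. The share lower was 3% within 50 genes to each side, 3.06% within 200 and 1.96% within 400. Hyal3, a hyaluronidase, was above background on the WT array only, at 31.9, and was at least 7.96-fold lower (-0.75 on the log2 scale with normexp and replaced local backgrounds). Whether the genetic background around the deleted locus differed between the mice was not tested.

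Hox genes mark position along the body axis, and 2 of the 35 above background passed 2-fold. Both were of paralog 13 and faint on the WT array. Over all genes above background, 2.28% were higher and 0.864% lower, so a count this small is not read as a pattern. The 14 genes of paralogs 1 to 5 and the 12 of paralogs 6 to 9 stayed within 2-fold, with medians of 0.19 and -0.12. Hoxc8 and Hoxb8 were the lowest, at -0.67 and -0.54. Of the 9 genes of paralogs 10 to 13 above background, 2 were higher by 2-fold and 7 were within 2-fold, with a median of 0.40 that turned to -1.02 with normexp. Hoxc13, the most caudal member above background on both arrays, gave 5.63 and 47.8, a difference of 2.98 that became -1.65 with normexp. Hoxb13 was above background only on the array labelled KO, with signals of 4.14 and 94.3, and was at least 19.7-fold higher (1.16 on the log2 scale with normexp and replaced local backgrounds). The level of the cord that was dissected is not given in the labels.

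**Figure D4:**
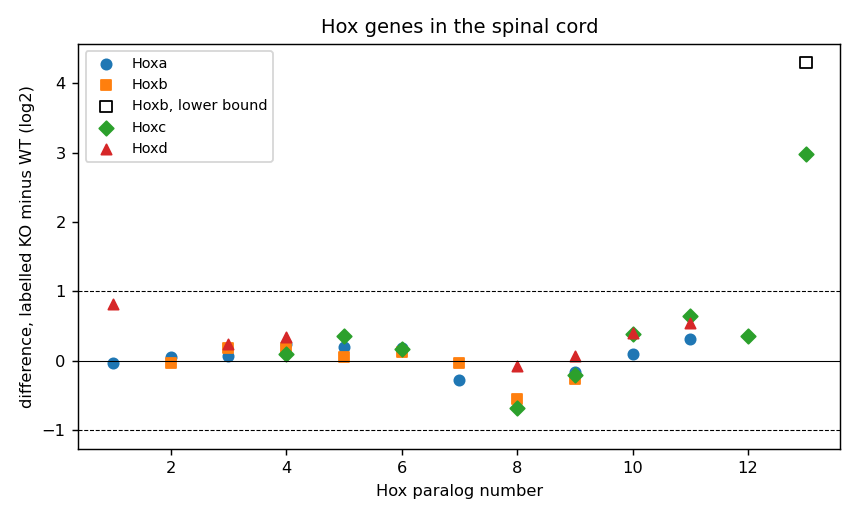
Difference between the spinal cord arrays (log2, labelled KO minus WT) for Hox genes, by paralog number, with 1 symbol shape per cluster. The open square is Hoxb13, shown at its lower bound of 4.30, and the diamond at paralog 13 is Hoxc13 at 2.98.

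Pathways that answer to fasting, stress or handling of tissue had small medians, though some depended on the processing. Of 19 genes of fatty acid oxidation and ketogenesis, 1 was higher by 2-fold, and the median of the list was 0.07. Among all genes above background 2.28% were higher and 0.864% lower, so few members of these lists would pass at those shares. Pdk4 and Angptl4, known to rise in fasting, differed by 0.88 and 0.92. No gene passed 2-fold among the immediate early, heat shock, circadian clock, interferon, reactive glia, p53, cholesterol synthesis and unfolded protein response lists, whose medians ran from -0.13 to 0.28. Across the alternative settings, the interferon median ranged from -0.43 to 0.28 and the reactive glia median from -1.37 to 0.28. The 75 ribosomal protein genes and the 75 genes of oxidative phosphorylation had medians of -0.03 and -0.02. Of 9 pancreatic acinar genes above background 2 were higher, Try4 and Try5, which are near-identical trypsinogen copies. Both are bounds, above background on the array labelled KO only, with signals of 2.15 and 24.7 for Try4 and 1.19 and 27.5 for Try5. None of 6 gut epithelium genes passed 2-fold.

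Promoters are shown for the members with the largest difference that the promoter table holds, 2 from the muscle list and 1 each from the Schwann cell, red cell and adipocyte lists. Each is the 250 bases before the RefSeq transcription start in GRCm38.p6, written 5′ to 3′ on the strand of the gene, and capitals mark matches to 5 motifs. The motifs were searched on both strands. They were the E-box, with the letters CAGCTG, the GATA motif, with the letters AGATAA, the SOX motif, with the letters ACAAAG, the TATA motif, with the letters TATAAA, and the MEF2 motif.
Ckm, chr7:19410844-19411093, plus strand: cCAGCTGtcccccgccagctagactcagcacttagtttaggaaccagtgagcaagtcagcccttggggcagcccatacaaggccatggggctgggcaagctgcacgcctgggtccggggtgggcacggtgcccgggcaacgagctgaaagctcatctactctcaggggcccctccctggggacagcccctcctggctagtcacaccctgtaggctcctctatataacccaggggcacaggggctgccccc
Acta1, chr8:123894776-123895025, minus strand: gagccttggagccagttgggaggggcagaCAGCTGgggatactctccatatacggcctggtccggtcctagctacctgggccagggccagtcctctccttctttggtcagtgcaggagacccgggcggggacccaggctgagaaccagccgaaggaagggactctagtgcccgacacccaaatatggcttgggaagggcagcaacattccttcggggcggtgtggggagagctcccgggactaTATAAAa
Prx, chr7:27499074-27499323, plus strand: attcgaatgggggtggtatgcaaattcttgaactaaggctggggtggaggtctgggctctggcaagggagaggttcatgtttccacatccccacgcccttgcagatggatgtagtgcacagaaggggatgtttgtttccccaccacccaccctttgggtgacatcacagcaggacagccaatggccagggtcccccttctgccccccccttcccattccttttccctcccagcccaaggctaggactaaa
Klf1, chr8:84901732-84901981, plus strand: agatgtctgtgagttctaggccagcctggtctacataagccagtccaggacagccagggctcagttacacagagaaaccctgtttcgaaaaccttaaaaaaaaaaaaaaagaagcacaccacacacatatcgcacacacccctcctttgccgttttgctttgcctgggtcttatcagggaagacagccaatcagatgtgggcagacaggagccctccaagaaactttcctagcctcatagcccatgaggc
Ucp1, chr8:83290098-83290347, plus strand: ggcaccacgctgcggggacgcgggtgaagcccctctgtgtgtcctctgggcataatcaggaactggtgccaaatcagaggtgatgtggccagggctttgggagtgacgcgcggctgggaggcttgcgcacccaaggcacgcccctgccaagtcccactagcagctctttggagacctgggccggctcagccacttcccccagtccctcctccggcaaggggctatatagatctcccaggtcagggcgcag
The E-box letters lie 249 bases before the start in Ckm and 221 in Acta1, and none of the 5 motifs matched in the windows of Prx, Klf1 and Ucp1. The E-box was found in 10 of 20 promoters of 17 muscle genes (50%) and in 13% of all 32851 promoters. A gene can have more than 1 promoter in these counts. The GATA letters were found in 4 of 10 promoters of 9 red cell genes (40%) and in 9.99% of all. The SOX letters were found in 0 of 16 promoters of 8 Schwann cell genes and 16.5% of all, and MEF2 in 1 of 20 muscle promoters (5%) and 3.20% of all. The TATA letters were found in 20% of muscle, 30% of red cell, 0% of Schwann cell and 7.69% of adipocyte promoters, and in 12.4% of all. Other pairs of list and motif were counted and are not given. These matches describe the letters only.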

How the data were processed

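RNA from spinal cord and duodenum was hybridized to 1-colour Agilent mouse arrays, 1 array for each genotype and tissue. The files deposited by the authors are the scanner's own output, whose gProcessedSignal column is a background-subtracted and detrended intensity from Agilent Feature Extraction 11.5.1.1, and a table of log2 values. The deposited log2 table matched log2 of the processed signal, quantile-normalized across the 4 arrays with signals below 1 raised to 1, with a median absolute difference of 0.00097 over spinal cord probes above background. It differed by over 0.1 for 6 probes of 4 genes, whose names conflict and which are not reported here.

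Control spots and outlier spots were left out (133 spots flagged on the WT array, 91 on the array labelled KO). Log2 of the processed intensity minus the 75th percentile of each array was used, with spots of a probe averaged and a gene represented by the probe that was brightest on average across the 4 arrays. Genes above background on at least 1 spinal cord array were kept, and a difference counted from 2-fold. The genes named are the 12 largest increases and 12 largest decreases whose probes changed the same way, the 6 largest bounds in each direction, and members of 43 gene lists. Some genes that these rules name are not reported here, though counts and medians include them. With 1 array per group there is no test, and the number of arrays limits the precision. Members and lists were chosen with earlier results of these data known.

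A list of liver and kidney genes was added after the values were seen, in 2 versions. The first was drawn partly from genes that had fallen. Of its 19 members above background 14 were lower and 1 higher, a count that this choice made and that is not used. It was replaced by 12 defining markers, of which 4 were above background on either array and 0 passed 2-fold. The rule for the promoters shown was also set after motif matches had been seen.

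Alternatives were normexp background correction (offset 50, limma 3.58.1, R 4.3.3), quantile normalization, median centring, scaling on spiked-in controls, the deposited table, other choices of probe, other filters and a 1.5-fold threshold. Tables were handled with pandas 2.3.3 in Python 3.11.15.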

Additional observations from a re-analysis of the deposited data

Results flagged for a closer look

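The same contrast ran in opposite directions in the spinal cord and the duodenum for some genes and lists, each tissue with 1 array per genotype, and the difference between tissues was not tested. The sign in the duodenum depends on the scaling between its arrays, whose 75th percentiles were 68.0 for WT and 323 for the array labelled KO. Ckm differed by 4.58 in the spinal cord and -1.40 in the duodenum, on the log2 scale, labelled KO minus WT. Des differed by 3.44 and -1.42, Hspb7 by 4.15 and -1.10, and Pmp22 by 1.98 and -2.53, in the same order. The histone gene H2ac4 differed by 1.42 and -3.22. Pck1 differed by -1.80 and 1.19, and Syt10 by -2.31 and 2.99. Over the members above background on all 4 arrays, the median of the skeletal muscle list was 3.66 and -1.04 (9 genes), that of the red cell list 1.16 and -3.01 (7 genes), and that of the neutrophil and marrow list 0.96 and -0.84 (5 genes). Without scaling, an alternative chosen after seeing the data, the median duodenum gene was at 2.13, and Ckm, Des, Hspb7 and the muscle and neutrophil lists were at 0.85, 0.83, 1.15, 1.21 and 1.41, so they no longer opposed the spinal cord. With spiked-in controls Pmp22 did not either, at 0.48, and the red cell list was at -0.007 (-0.77 without scaling). Relative to the median duodenum gene, the 5 items were at -1.28, -1.31, -0.98, -0.92 and -0.73 in the same order. Pmp22 was at -2.41 and the red cell list at -2.90.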

How the results depend on the processing

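The count of 576 genes higher by 2-fold was 86 with normexp background correction, 173 with normexp and flagged local backgrounds replaced, 1105 with no filter and 1318 at 1.5-fold. The count of 218 lower was 9653, 19, 875 and 808 in the same order, and 144 with the 4 arrays quantile-normalized, 352 scaled on spiked-in controls and 128 with both arrays above background. The median gene shifted to -0.45 with normexp and to -0.21 with spiked-in controls. It was at -0.05 with normexp and flagged local backgrounds replaced. The cause was not tested.

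With normexp 20 of 45 list medians and 57 of 149 named genes turned sign, most of them under 0.5 in size before, and with spiked-in controls 10 of 45 and 21 of 155. After flagged local backgrounds were replaced, normexp turned 3 of 45 list medians and 8 of 155 genes. Of the genes past 2-fold, 15 of 43 lost that call with normexp and 21 of 49 with replaced backgrounds, against at most 3 in any other setting. Of the genes past 2-fold and the list medians past 0.5, those that turned with normexp were Cldn19 (-0.64), Col3a1 (-0.69), Cyp2e1 (-0.56), Des (-0.31), Hoxc13 (-1.65), Hspb7 (-0.49), Ibsp (-0.74), Ms4a1 (-1.13), Retn (-1.80), Trim54 (-0.95), Ube2c (-0.43) and the medians of the lists of meninges and fibroblasts (-0.13), lymphocytes (-1.39) and cell cycle (-0.44).

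For normexp, normexp with replaced backgrounds, 4-array quantiles, spiked-in controls and the deposited table, in that order, Ip6k2 was 1.05, 1.31, 1.54, 1.28 and 1.54, the Schwann cell median 0.28, 1.17, 1.44, 1.15 and 1.44, the muscle median 2.09, 3.25, 3.95, 3.50 and 3.95, and the red cell median 0.79, 0.92, 1.51, 1.08 and 1.51. With replaced backgrounds and with spiked-in controls, the median was 0.60 and 0.84 for meninges and fibroblasts, -0.56 and -1.15 for adipocytes (-1.18 with normexp), 0.92 and 0.94 for neutrophils (1.22 with 4-array quantiles, 1.23 in the deposited table) and 0.24 and 0.75 for lymphocytes. Of the 12 largest increases 9 kept their sign under all settings run, and of the 12 largest decreases 12 did. No paired analysis was possible because a spinal cord group holds a single array.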
